A study of Homo sapiens with 24 samples.

Results

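The transcripts described here are those of the human mitochondrial genome, taken as every gene symbol in the count files that starts with MT-. The rule gave 37 members of 60641 symbols, namely 13 mRNAs, 2 rRNAs and 22 tRNAs. They were counted by RNA-seq after ribosomal RNA depletion in 24 libraries of A549, a lung adenocarcinoma cell line, and HCT116, a colorectal carcinoma cell line. In these lines the study used CRISPR/Cas9 to delete the DNA-binding domain (DBD) of noncoding transcripts, and sequenced RNA before and after the knockout (KO). In A549 there were MSTRG.2513.6 KO (libraries S17, S18 and S19), MSTRG.4401.1 KO (S23, S24 and S25) and wild type, called WT B here after the library names 1B, 2B and 3B (S20, S21 and S22). In HCT116 there were MSTRG.2513.6 KO (S8, S9 and S11), MSTRG.4401.1 KO (S10, S15 and S16), MSTRG.34636.7 KO (1A, 2A and 3A), wild type WT A (1A, 2A and 3A) and wild type WT B (S12, S13 and S14). All groups are cancer cell lines and no treatment other than the KO is named. The labels do not say whether a KO line is 1 clone, and they do not say whether the 3 libraries of a group came from separate cultures, so p-values measure the spread between these libraries, which may be technical. They also do not pair KO with wild-type sets, and here MSTRG.34636.7 KO was set against WT A and every other KO against WT B of its cell line.

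Library totals ran from 25799359 to 102261808 counts. Levels are given in CPM, counts scaled to a common library total, and 3 counts correspond to 0.0293 to 0.116 CPM. Summed over 6 genes that mark A549, the level was 6787 to 10170 CPM in the A549 libraries and 56.4 to 153.9 CPM in the HCT116 libraries, except that S8 and S9, which are labelled HCT116 MSTRG.2513.6 KO, stood at 9333 and 9039 CPM. Of 6 genes listed as HCT116 markers, EPCAM, CDX2 and CDKN2A told the lines apart. CDX1 and GPA33 were at or near 0 in both lines and VIL1 did not separate them. EPCAM was at 111 to 247 CPM in the other HCT116 libraries, at 1.26 to 3.95 CPM in A549, and at 0.890 and 1.31 CPM in S8 and S9. AKR1C1 and KRT7, which A549 expresses strongly, stood at 1492 and 1908 CPM in the library labelled S8 and at 1457 and 1777 CPM in that labelled S9, against 5.83 and 10.5 CPM in S11 of the same group. CDKN2A, which A549 has lost, was at 0.530 CPM in S8, 0.215 CPM in S9 and 37.1 CPM in S11. Each result of that group is therefore given with and without those libraries.

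The human mitochondrial genome is a small circle that is transcribed from both strands into long precursors. In most places a tRNA sits between neighbouring mRNAs or rRNAs, and cutting out the tRNAs at both ends releases the mature RNAs. Its mRNAs encode subunits of respiratory complex I (the ND genes), complex III (CYB), complex IV (the CO genes) and ATP synthase (the ATP genes), and its rRNAs and tRNAs serve the ribosome inside the organelle. The proteins that copy, transcribe, cut and translate this genome are all encoded in the nucleus. RNA of a tRNA gene can be the mature tRNA or a precursor that spans it, and gene counts cannot tell these apart. The kit was strand-specific, but whether counting used the strand is not given in the sources used here, so reads of a gene and of RNA from the opposite strand cannot be told apart either.

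On chromosome M of hg38, which is 16569 bases long, 28 members lie on the plus strand and 9 on the minus strand, MT-ND6 and 8 tRNAs. A pair of gene overlaps bears on the counts. MT-ND4L (chrM:10470-10766), a small complex I subunit, shares its last 7 bases with MT-ND4 (chrM:10760-12137), and MT-ATP8 (chrM:8366-8572) shares 46 bases with MT-ATP6 (chrM:8527-9207). In both pairs 1 mRNA carries both reading frames. The junctions are shown on the plus strand, at chrM:10730-10796 and chrM:8507-8592, with the shared bases in capitals.
MT-ND4L and MT-ND4: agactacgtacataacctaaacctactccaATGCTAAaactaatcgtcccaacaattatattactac
MT-ATP8 and MT-ATP6: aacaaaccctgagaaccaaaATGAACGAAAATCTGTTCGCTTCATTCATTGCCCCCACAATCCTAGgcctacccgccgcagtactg

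A cluster of tRNA genes turned out to move apart from the other members and is shown for that reason. MT-TW (tryptophan, chrM:5512-5579) is on the plus strand, and MT-TA (alanine, chrM:5587-5655), MT-TN (asparagine, chrM:5657-5729) and MT-TC (cysteine, chrM:5761-5826) are on the minus strand. Each is printed in the sense of its own tRNA with the anticodon in capitals. Between MT-TN and MT-TC lies the origin of light-strand replication, a short hairpin in the DNA. Its sequence (chrM:5730-5760, minus strand) is printed with 8 bases of each arm of an inverted repeat, around a loop of 12, in capitals. The repeat was sought only inside this gap and runs on beyond it. The aag that ends the gap is complementary to the ctt that ends MT-TC. All sequences are those of the hg38 reference.
MT-TW: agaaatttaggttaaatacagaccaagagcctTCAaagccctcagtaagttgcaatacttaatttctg
MT-TA: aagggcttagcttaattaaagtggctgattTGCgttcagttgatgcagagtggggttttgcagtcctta
MT-TN: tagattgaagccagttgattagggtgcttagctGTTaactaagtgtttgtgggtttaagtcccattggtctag
MT-TN to MT-TC gap: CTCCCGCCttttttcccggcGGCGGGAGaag
MT-TC: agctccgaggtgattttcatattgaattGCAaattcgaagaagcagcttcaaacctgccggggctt

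Nearly all counts of the set came from the mRNAs, which made up 97.3% to 98.6% of the MT counts of a library. The tRNAs made up 1.08% to 2.38% and the rRNAs 0.0387% to 0.657%. Because rRNA was removed before sequencing, the rRNA values are what depletion left and not the level in the cell. On the scale of CPM per kilobase of gene, averaged over the 24 libraries, MT-ND4L was highest at 10430 and MT-CO1, the catalytic subunit of complex IV, next at 6397. MT-ATP8 followed at 4925 and MT-ATP6 at 3273. MT-CO2 (1968), MT-ND1 (1616), MT-CO3 (1542), MT-ND5 (1219), MT-CYB (1174), MT-ND2 (1095) and MT-ND6 (1081) lay within a narrower band, and MT-ND3 was at 395. The order of these means is a description over all groups and was not tested.

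MT-ND4 went against this order. It had 15 to 27 counts in each library, or 0.315 CPM per kilobase on average, whereas MT-ND4L, carried by the same mRNA, had 79681 to 272326 counts. Taken as 1 unit of 1668 bases, the pair had 1857 CPM per kilobase, within the range of the other mRNAs, and the ATP pair as 1 unit of 842 bases had 3858. MT-TY had exactly 1 count and MT-TQ 1 to 3 counts in all libraries, while MT-TC, which overlaps MT-TY by 1 base on the same strand, had 1921 to 22195. The study quantified genes with StringTie, but how counts of overlapping genes were assigned is not given in the sources used here and was not tested. No change of MT-ND4, MT-ND4L, MT-TQ or MT-TY is therefore read as that of 1 gene. The same limit holds for MT-TC, for MT-TI, which shares 3 bases with MT-TQ, and for MT-ATP8 and MT-ATP6, which share 46. Values given for these genes may include RNA of the neighbour. Among the other tRNAs MT-TF had 0 to 107 counts and MT-TV 1 to 38, and the 18 with a mean of at least 1 CPM ranged from 54.2 CPM per kilobase (MT-TK) to 2008 (MT-TC).

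**Figure D1:**
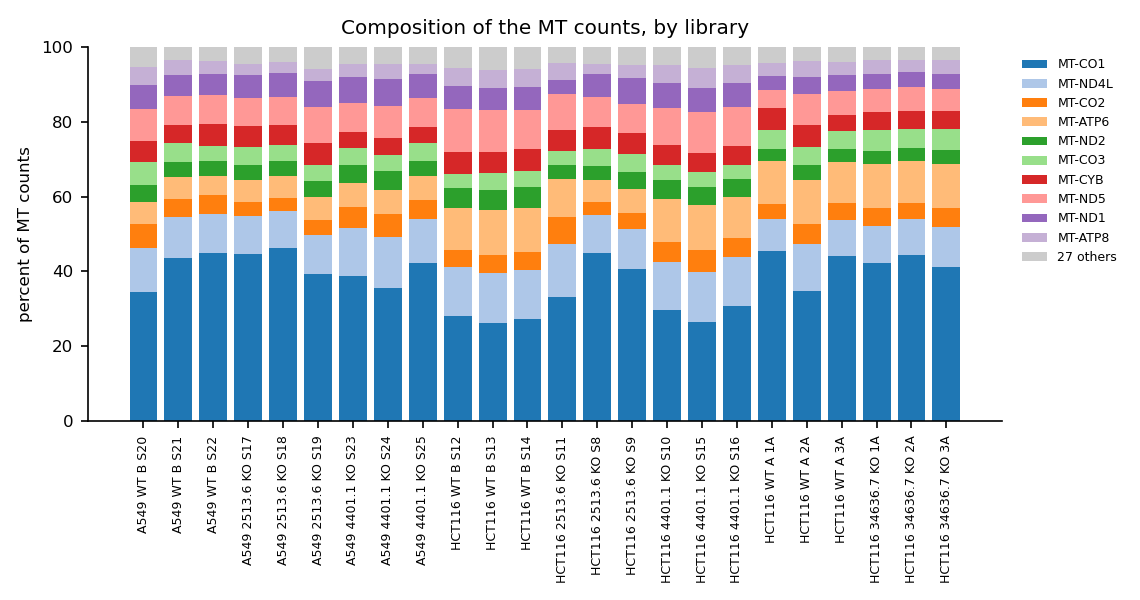
Share of each library's MT counts taken by the 10 most abundant members and by the 27 others together, in percent, with libraries on the x axis by group. MT-CO1 took the largest share in every library, 26.3% to 30.8% in HCT116 WT B and HCT116 MSTRG.4401.1 KO and 34.4% to 46.4% in A549.

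With S8 and S9 set aside, 5 of the 37 members had shares of the MT counts that did not overlap between the cell lines, namely MT-ATP6 and the tRNAs MT-TL1, MT-TS1, MT-TT and MT-TP. The other 12 mRNAs overlapped, and this is a description without a test. The matching share over all genes was not computed, so the count is not read as a trait of the MT members. The ATP synthase subunit MT-ATP6 made up 5.10% to 6.48% of MT counts in the 9 A549 libraries and 9.95% to 12.1% in the 13 HCT116 libraries. The libraries labelled S8 and S9 held 5.92% and 6.43%, inside the A549 range. MT-TT (threonine tRNA) made up 0.0747% to 0.135% in A549, 0.0289% to 0.0650% in those 13 HCT116 libraries, and 0.142% and 0.124% in S8 and S9. These members were chosen here after their values were seen. The share of MT-CO1 varied within HCT116 as well, from 26.3% to 28.1% in WT B to 34.8% to 45.4% in WT A, as the plot of composition shows.

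**Figure D2:**
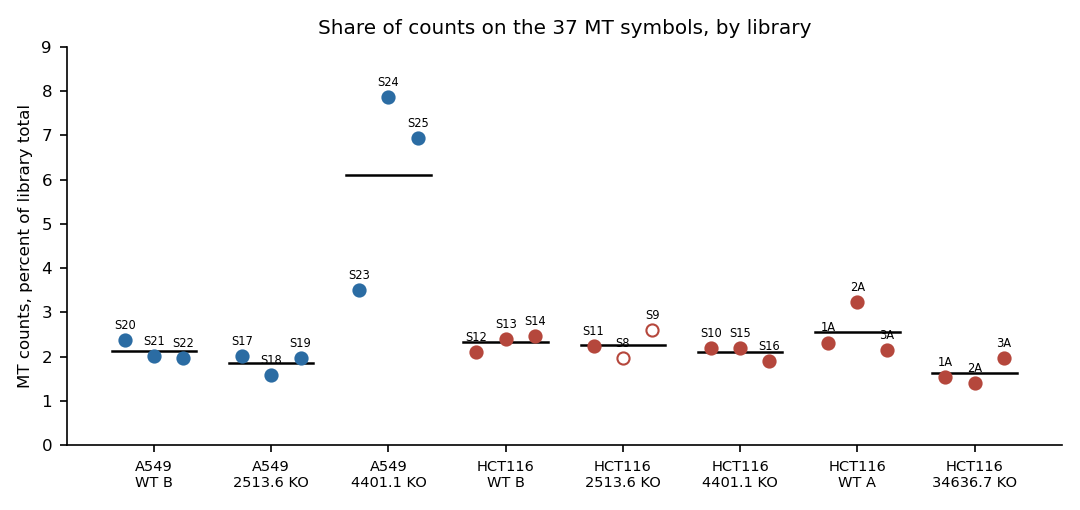
Counts on the 37 MT symbols in percent of the library total (y axis) for each library, by group on the x axis; lines are group means, blue is A549, red is HCT116, and open circles are S8 and S9. The A549 MSTRG.4401.1 KO libraries lie at 3.50% to 7.87%, above the A549 WT B libraries at 1.96% to 2.37%.

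The share of all counts that fell on MT genes was 1.39% to 3.50% in 22 libraries and higher in S24 and S25. For each of 7 comparisons it was tested together with 9 other shares and ratios by exact two-sided permutation tests over libraries, on the log2 scale. With 3 libraries against 3 the smallest possible p is 0.1, and after Benjamini-Hochberg adjustment over these 70 tests it is 0.25, so no share could pass a threshold of 0.05. Shares are therefore given by library, with whether the groups overlap.

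In A549 MSTRG.4401.1 KO all tested MT members stood higher than in wild type as a group value, in mRNAs, tRNAs and residual rRNAs. Their log2 fold changes ran from 0.81 to 2.14, and MT-TQ and MT-TY were not tested. The MT share was 3.50% in S23, 7.87% in S24 and 6.93% in S25, against 2.37%, 2.01% and 1.96% in the 3 A549 WT B libraries (S20, S21 and S22). The groups did not overlap, S23 lay closest to wild type, and the means on the log2 scale differed by 2.73-fold (exact permutation p = 0.1, adjusted p = 0.25). In bulk RNA, more MT RNA per cell, more cells rich in it and less of other RNA cannot be told apart.

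Gene by gene, edgeR's quasi-likelihood test was fitted on all genes of each comparison. The study's rule calls a gene at a Benjamini-Hochberg FDR below 0.1 with an absolute log2 fold change above 1, and log2 fold changes are given ± their standard error. By this rule 32 of the 35 members tested rose in A549 MSTRG.4401.1 KO, 12 mRNAs, 18 tRNAs and both rRNAs, where 11.1% of all genes tested rose. By the FDR alone all 35 tested rose, where 21.3% of all genes did, and MT-ND4 (0.93), MT-TI (0.81) and MT-TM (0.97) were those that did not reach the fold. The median log2 fold change was 1.46 over the 13 mRNAs and 1.41 over the 20 tRNAs tested, against 0.12 over all genes. Without S24 or without S21 the count of calls was 20, without S25 it was 22 and without S22 it was 24. No tested member fell by the FDR in any of these fits. Of all genes 7.36% rose past the fold without S24, 7.53% without S21, 9.54% without S25 and 10.4% without S22. Without S23 the count was 34 and without S20 it was 33, where 10.2% and 9.18% of all genes rose.

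The complex I subunit MT-ND1 had 2348, 5702 and 4409 CPM in the KO libraries (S23, S24 and S25) and 1496, 1123 and 1101 CPM in A549 WT B (S20, S21 and S22). It rose by 1.66 ± 0.324 (FDR 0.00669), and MT-ND3 rose by 1.67 ± 0.367 (FDR 0.0107), the upper end among the mRNAs. MT-CO1 had 13600, 28080 and 29300 CPM against 8140, 8767 and 8819 CPM and rose by 1.40 ± 0.308 (FDR 0.0109). In both genes each KO library exceeded each wild-type library, with S23 nearest to them.

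At the lower end of the mRNAs, MT-CYB of complex III rose by 1.11 ± 0.297 (FDR 0.0225) and MT-ATP8 by 1.17 ± 0.339 (FDR 0.0300), while MT-ATP6 rose by 1.62 ± 0.315 (FDR 0.00667). The count ratio of MT-ATP8 to MT-ATP6 was 0.460 to 0.607 in the KO and 0.685 to 0.816 in A549 WT B, without overlap (0.742-fold, exact permutation p = 0.1). Assignment of reads on their shared bases is not given, so this ratio, here and below, is not read as separate gene levels. MT-ND6, the minus-strand mRNA, rose by 1.48 ± 0.383 (FDR 0.0197), and its ratio to MT-ND5 lay at 0.250 to 0.262 in the KO, inside the wild-type range of 0.217 to 0.298. The residual rRNAs rose by 1.24 ± 0.395 (MT-RNR1, of the small ribosomal subunit, FDR 0.0416) and 1.30 ± 0.359 (MT-RNR2, of the large subunit, FDR 0.0247). The calls of both rRNAs were lost without S25 and without S21, that of MT-CYB without S24, S25 or S21, and that of MT-ATP8 without S24, S21 or S22, whereas those of MT-ATP6, MT-ND6, MT-ND1, MT-ND3 and MT-CO1 held in all 6 such fits.

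Among the tRNAs MT-TC, whose counts may include those of MT-TY, stood furthest from wild type. Its level was 150, 386 and 338 CPM in the KO against 80.1, 60.2 and 46.2 CPM, a rise of 2.14 ± 0.369 (FDR 0.00417). Its neighbour MT-TN had 46.9, 115.6 and 99.6 CPM against 27.6, 21.7 and 15.6 CPM and rose by 1.92 ± 0.357 (FDR 0.00552). Both genes lie on the minus strand, and the 8 minus-strand tRNAs together held 65.5% to 66.6% of tRNA counts in the KO and 53.2% to 58.7% in A549 WT B, without overlap. MT-TC and MT-TN are among these 8, and the share without them was not computed. It is therefore not read as a trait of minus-strand tRNAs in general.

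Other features of these libraries moved too. The KO libraries were shallower, 25799359 to 33205007 counts against 41563496 to 59466012. The 5 abundant noncoding RNAs RN7SL1, RN7SL2, RN7SK, RMRP and RPPH1 held 12.7% to 16.8% of counts against 5.41% to 9.998%, and cytosolic ribosomal protein genes held 2.11% to 2.95% against 3.45% to 3.77%. Their part in the rise of the MT genes was not tested. With the library totals scaled on nuclear genes alone, 32 members were called as well.

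The nuclear genes listed for mitochondrial transcription, RNA processing and decay and DNA maintenance did not rise by the FDR. Of 9 transcription genes, 4 fell by the FDR alone, where 22.4% of all genes fell, and 1 of these fell past the fold, where 4.32% did. That was MTERF3, which acts on mitochondrial transcription and ribosome assembly, with 3.16, 1.74 and 4.19 CPM in the KO against 9.53, 10.2 and 4.98 CPM (-1.53 ± 0.391, FDR 0.0187). The transcription and packaging factor TFAM changed by -0.64 ± 0.126 (FDR 0.00692), and POLRMT, the polymerase itself, stood at -0.30 ± 0.146 (FDR 0.141).

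Of 18 genes of RNA processing and decay 12 fell by the FDR alone, where 22.4% of all genes fell. Among them were ELAC2 and PRORP, which cut tRNAs from the precursors (-0.84 with FDR 0.000932 and -0.47 with FDR 0.0359). REXO2, an oligoribonuclease that clears short RNAs, was the 1 of these 18 that passed the fold as well, where 4.32% of all genes fell past it. REXO2 stood at 20.9, 18.5 and 20.2 CPM in the KO against 37.7, 38.8 and 40.6 CPM (-1.05 ± 0.106, FDR 0.000454). Of 12 genes of mitochondrial DNA maintenance 7 fell by the FDR alone. Of 78 genes of mitochondrial ribosomal proteins 56 fell and 1 rose by the FDR, 7 fell past the fold, and the median log2 fold change was -0.63. MRPL14 fell by 1.54 ± 0.200 on the log2 scale (FDR 0.00138), MRPL41 by 1.22 ± 0.147 (FDR 0.000975), MRPL10 by 1.21 ± 0.136 (FDR 0.000752), MRPS2 by 1.17 ± 0.129 (FDR 0.000687) and MRPS7 by 1.04 ± 0.127 (FDR 0.00105).

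PPARGC1A, the coactivator of mitochondrial biogenesis, was the 1 of 6 biogenesis regulators that changed. It had 15.9, 15.6 and 10.6 CPM in the KO (S23, S24 and S25) and 1.715, 1.497 and 1.66 CPM in A549 WT B, a rise of 3.02 ± 0.211 (FDR 8.9e-05). Each KO library lay far above each wild-type library, although S23 had the smallest MT share and the highest PPARGC1A level of the 3.

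**Figure D3:**
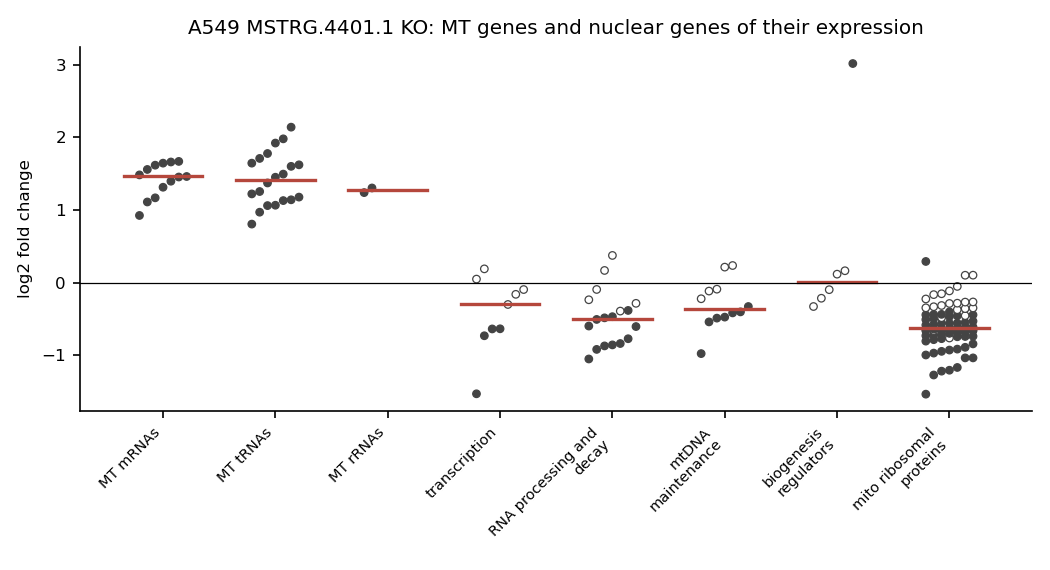
Log2 fold change of A549 MSTRG.4401.1 KO against A549 WT B (y axis) for the tested MT mRNAs, tRNAs and rRNAs and for 5 lists of nuclear genes (x axis); each point is a gene, filled at FDR below 0.1, and lines are medians. The MT genes lie between 0.81 and 2.14, and the mitochondrial ribosomal protein genes have a median of -0.63.

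In HCT116 the KO of the same transcript gave another picture: most tRNAs stood lower, a few of them past the fold, and the mRNAs stayed near wild type. The MT share was 2.19%, 2.19% and 1.90% in the KO (S10, S15 and S16) and 2.09%, 2.39% and 2.47% in HCT116 WT B (S12, S13 and S14). These ranges overlapped (0.903-fold, exact permutation p = 0.3, adjusted p = 0.512). The tRNAs were 1.36% to 1.42% of MT counts against 1.81% to 2.15%, without overlap (0.711-fold, exact permutation p = 0.1).

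Of 34 members tested 3 fell past the fold, where 1.62% of all genes fell and 2.62% changed in either direction. All 3 were tRNAs of the cluster printed above. That cluster was chosen after these values were seen, so their place in it is not a separate result. MT-TA had 14.6, 12.9 and 10.6 CPM in the KO against 28.4, 29.0 and 47.0 CPM and fell by 1.46 ± 0.217 on the log2 scale (FDR 0.00585). MT-TN had 28.7, 28.4 and 22.3 CPM against 48.5, 52.6 and 81.8 CPM and fell by 1.21 ± 0.205 (FDR 0.00989). MT-TW, across the strand, had 3.197, 2.485 and 2.5 CPM against 5.21, 6.17 and 6.06 CPM and fell by 1.10 ± 0.167 (FDR 0.00636). In each of them the highest KO library lay below the lowest wild-type library.

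By the FDR alone 9 members fell, where 8.72% of all genes fell. They were these and MT-TC (-0.85 ± 0.161, FDR 0.0155), MT-TM, MT-TI, MT-TD, MT-TT and the mRNA MT-CYB (-0.34 ± 0.0919, FDR 0.0569). MT-TC had 77.4, 82.0 and 64.2 CPM against 109, 126 and 165 CPM, again without overlap. The printed cluster, chosen after its values were seen, was thus lower in the KO as a whole. MT-TI and MT-TM, isoleucine and methionine tRNAs upstream of MT-ND2, fell by 0.68 ± 0.122 and 0.69 ± 0.147. The median over the 13 mRNAs was -0.19 against 0.00 over all genes. Over the 19 tRNAs tested it was -0.39, and 1 of them had a positive value.

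The calls of the cluster depended on 3 choices. Without S14, in which MT-TA, MT-TN and MT-TC were highest, MT-TN was no longer called. In a fit of all HCT116 libraries together, which includes S8 and S9, 0 members were called. In that fit 0.02% of all genes rose and 0.07% fell, so 0 calls lay near the background. At an unadjusted p below 0.05 there were 6, and the share over all genes at that p is not given here. In the same fit without S8 and S9 there were 3 calls, all downward, where 0.365% of all genes rose and 0.885% fell. Against WT A in place of WT B 4 were called, MT-TL2 upward by 1.06 and MT-TA, MT-TN and MT-TC downward, where 4.75% of all genes rose and 5.49% fell, while MT-TW stood at -0.45 and was not called. In the nuclear lists 3 of 78 mitochondrial ribosomal protein genes rose by the FDR, where 7.57% of all genes rose, and 3 fell. Of 12 genes of mitochondrial DNA maintenance 2 rose and 2 fell, of 18 of RNA processing and decay 1 rose, and of 5 biogenesis regulators tested 1 fell.

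**Figure D4:**
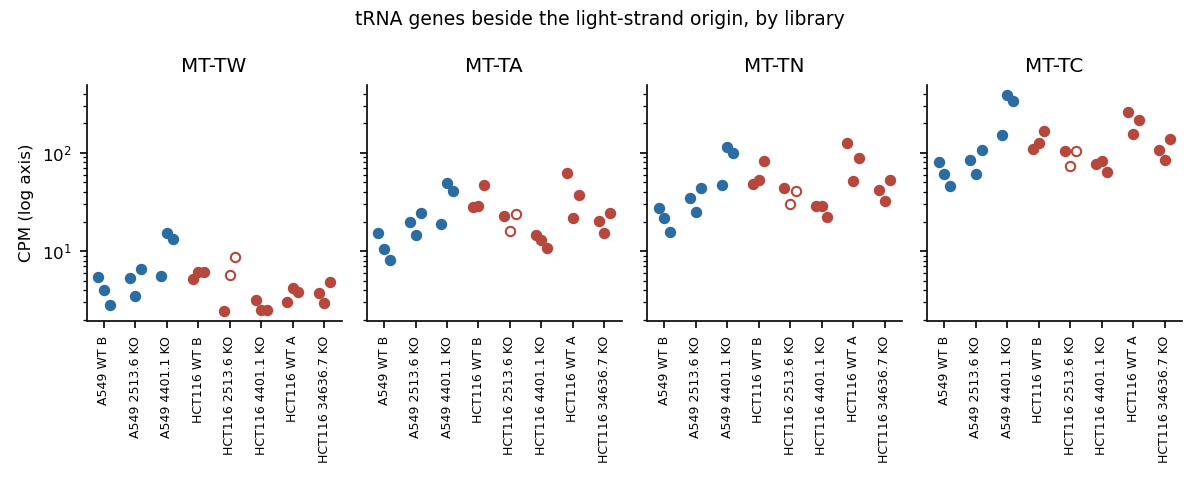
CPM (y axis, log scale) of MT-TW, MT-TA, MT-TN and MT-TC in each library, by group on the x axis; blue is A549, red is HCT116, and open circles are S8 and S9. For all 4 genes the HCT116 MSTRG.4401.1 KO libraries lie below HCT116 WT B and the A549 MSTRG.4401.1 KO libraries above A549 WT B.

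Whether this KO acted differently in the cell lines was tested as an interaction over 12 libraries. The log2 fold change in A549 exceeded that in HCT116 for 30 of 35 members at FDR below 0.1, where 11.6% of all genes did so, and the median difference was 1.65 over the mRNAs and 0.10 over all genes. The cluster led with MT-TN at 3.09 ± 0.468 (FDR 0.000963), MT-TA at 3.02 ± 0.498 (FDR 0.00160) and MT-TC at 2.95 ± 0.456 (FDR 0.00109). Of the mRNAs MT-ND3 had the largest difference, 1.84 ± 0.446 (FDR 0.0130), and MT-ATP8 the smallest of those that passed, 1.19 ± 0.397 (FDR 0.0548). MT-ND4, MT-TF, MT-TV and both rRNAs did not pass, with differences of 0.73 ± 0.650 for MT-RNR1 and 0.69 ± 0.540 for MT-RNR2.

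A549 MSTRG.2513.6 KO was set against the same A549 WT B libraries, so it shares its controls with the comparison above. The MT share was 2.02%, 1.59% and 1.97% in the KO (S17, S18 and S19), overlapping wild type (0.877-fold, exact permutation p = 0.5). No member of 35 was called by edgeR, where 1.79% of all genes fell past the fold and 5.96% passed the FDR in either direction. At an unadjusted p below 0.05 there were 4, and DESeq2 passed 3 by its FDR and 0 past the fold. For that p and for the DESeq2 FDR alone the share over all genes is not given here. All 13 mRNAs had negative values, with a median of -0.24 against -0.03 over all genes. Without the wild-type library S20 the median was -0.01 and 7 of the 13 were negative.

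MT-CO2, the subunit that takes electrons into complex IV, had the most negative value of the mRNAs, with 753, 577 and 796 CPM in the KO against 1528, 1005 and 1037 CPM (-0.76 ± 0.216, FDR 0.116). MT-ATP8 had 600, 470 and 618 CPM against 1156, 804 and 695 CPM (-0.67 ± 0.226, FDR 0.183), and MT-ATP6 stood at -0.12 ± 0.190. In MT-CO2 and MT-ATP8 each KO library lay below each wild-type library. The ratio of MT-ATP8 to MT-ATP6 was 0.493 to 0.519 in the KO and 0.685 to 0.816 in wild type (0.696-fold, exact permutation p = 0.1), and the tRNAs held 1.58% to 2.09% of MT counts against 1.08% to 1.55% (1.41-fold, exact permutation p = 0.1).

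PPARGC1A had 0 counts in the 3 KO libraries and 1.62 ± 0.114 CPM (SD, n = 3) in A549 WT B. Set against a floor of 3 counts in each KO library, 0.0545 CPM on average, it was at least 29.8-fold lower. It was thus at 0 in 1 A549 KO and at 10.6 to 15.9 CPM in the other, while the MT share was 1.59% to 2.02% in the first and 3.50% to 7.87% in the second. In the libraries labelled HCT116, PPARGC1A was at 0 to 0.12 CPM, with MT shares of 1.39% to 3.24%. A link between PPARGC1A and the MT share was not tested.

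HCT116 MSTRG.2513.6 KO, the group with S8 and S9, had MT shares of 2.25% in S11, 1.96% in S8 and 2.60% in S9, around the HCT116 WT B values (0.975-fold, exact permutation p = 0.8). No member of 34 was called by edgeR, where 1.42% of all genes passed the FDR in either direction. At an unadjusted p below 0.05 there were 3, and DESeq2 passed 1 by its FDR and 0 past the fold. For that p and for the DESeq2 FDR alone the share over all genes is not given here. Without S11, the 2 remaining libraries, which carry A549 markers, gave 7 calls among 34 members, all upward, where 17.1% of all genes rose and 20.1% fell, so that the members' share lay near the background. With S8 and S9 left out, S11 alone stood for the KO in a fit of the other HCT116 libraries, in which the lone library is assumed to vary like the rest, and 9 tRNAs of 35 members were called, all downward, where 2.54% of all genes fell and 3.63% rose.

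MT-TL1, a leucine tRNA, shows the split: its value was -1.28 with S11 alone, and S8 and S9 held 0.0877% and 0.0917% of MT counts on it, above all 13 other HCT116 libraries at 0.0253% to 0.0598%. MT-ATP6 had 2232 CPM in S11, 1160 CPM in S8 and 1671 CPM in S9, against 2351, 2888 and 2907 CPM in HCT116 WT B. MT-TW was at 2.48 CPM in S11 and at 5.74 and 8.67 CPM in S8 and S9. Between the cell lines the effect of this KO passed for 0 of 35 members by edgeR, where 9.88% of all genes passed. At an unadjusted p below 0.05 there were 5, a rule for which the share over all genes is not given here. DESeq2 passed 3, where 4.46% of all genes were higher in A549 and 12.8% lower. By edgeR without S11 there were 10, where 18.3% of all genes were higher in A549 and 22.5% lower. Without S20 there was 1, where 0.664% were higher and 2.27% lower. Without S8 and S9, S11 alone stood for the HCT116 KO, and the median difference over the mRNAs was -0.02, against -0.26 with all libraries.

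In HCT116 MSTRG.34636.7 KO, measured against WT A, the MT share was lower without overlap, but no single member passed. It was 1.54%, 1.39% and 1.97% in the KO (1A, 2A and 3A) and 2.32%, 3.24% and 2.15% in WT A (0.641-fold, exact permutation p = 0.1, adjusted p = 0.25). Of 33 members 0 were called by edgeR, where 2.15% of all genes passed the FDR in either direction. At an unadjusted p below 0.05 there were 17. DESeq2 called 3 past the fold, all lower in the KO, where 1.48% of all genes were lower and 1.72% higher. By its FDR alone DESeq2 passed 10. For the unadjusted p and for that FDR the share over all genes is not given here. All 13 mRNAs had negative values, from -0.83 to -0.21 with a median of -0.68, against -0.02 over all genes.

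Of these MT-CYB had 744, 674 and 943 CPM in the KO against 1371, 1929 and 922 CPM (-0.83 ± 0.257, FDR 0.198), where 1 wild-type library, 3A, lay inside the KO range. MT-TC had 107, 84.2 and 137 CPM against 263, 156 and 217 CPM without overlap (-0.96, FDR 0.142). The residual rRNAs spread most: MT-RNR1 had 4.83, 1.44 and 3.85 CPM in the KO and 34.2, 28.3 and 2.47 CPM in WT A (-2.65 ± 0.829, FDR 0.199). Wild-type library 3A lay within the KO values for MT-RNR1, apart from the other 2 of its group. Leaving out a WT A library gave 1 call without 1A, 3 without 2A and 2 without 3A, all lower in the KO. Of all genes 0.617%, 0.866% and 0.525% were lower past the fold in these fits. Against WT B in place of WT A 16 members were called, also all lower in the KO, where 6.82% of all genes were lower and 7.69% higher.

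The wild-type sets of HCT116 differed from each other in the mix of MT transcripts more than in their sum. The MT share was 2.15% to 3.24% in WT A and 2.09% to 2.47% in WT B (1.09-fold, exact permutation p = 0.8). Of 33 members 4 were lower in WT A past the fold, where 3.90% of all genes were lower and 7.06% differed in either direction. MT-TL2, a leucine tRNA, had 9.53, 16.6 and 11.9 CPM in WT A and 26.5, 35.4 and 33.9 CPM in WT B (-1.35 ± 0.218, FDR 0.00667). Its neighbour MT-TS2, a serine tRNA, had 7.29, 14.5 and 9.90 CPM against 20.6, 27.1 and 26.2 CPM (-1.24 ± 0.248, FDR 0.0182). For both the sets did not overlap, and both stayed called with any 1 library left out.

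MT-TH (-1.04 ± 0.285, FDR 0.0655), the histidine tRNA next to them, and MT-ND6 (-1.05 ± 0.254, FDR 0.0422) were called too, but in 1 and in 2 of the 6 fits with a library left out. Those fits gave 2 to 10 calls, with 10 when WT A library 2A was left out and 2 when S13, S14 or WT A library 1A was. In these 2A, S13, S14 and 1A fits, 4.4%, 3.11%, 3.08% and 3.59% of all genes were lower in WT A past the fold. The ratio of MT-ND6 to MT-ND5 was 0.195 to 0.234 in WT A and 0.270 to 0.297 in WT B (0.743-fold, exact permutation p = 0.1). By the FDR alone 9 members were lower in WT A, where 6.71% of all genes were, and 1 was higher, where 5.56% were. The higher one was MT-CO1, at 10510, 11260 and 9494 CPM against 5874, 6286 and 6751 CPM (0.71 ± 0.169, FDR 0.0394), without overlap. The minus-strand tRNAs held 69.4% to 87.0% of tRNA counts in WT A and 59.2% to 66.3% in WT B. MT-TC, MT-TN and MT-TA are among them, and the share without these was not computed.

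Wild-type A549 and HCT116 (WT B in both) had similar MT shares, 1.96% to 2.37% and 2.09% to 2.47% (0.911-fold, exact permutation p = 0.2), and differed member by member in both directions. Past the fold 2 of 35 members were higher in A549, where 17.2% of all genes were, and 2 were lower, where 18.5% were, so the share of members called lay below the background. By the FDR alone 8 were higher, against 31.2% of all genes, and 10 lower, against 31.7%. The residual rRNAs were those higher past the fold: MT-RNR1 had 59.5, 25.2 and 56.4 CPM in A549 (S20, S21 and S22) and 9.33, 18.1 and 20.1 CPM in HCT116 (1.83 ± 0.400, FDR 0.00574), and MT-RNR2 differed by 1.79 ± 0.357 (FDR 0.00370). Ribosomal RNA depletion acted on both before counting, and its part in this was not tested.

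Lower in A549 past the fold were MT-TA, with 15.2, 10.5 and 8.04 CPM against 28.4, 29.0 and 47.0 CPM (-1.34 ± 0.307, FDR 0.00715), and MT-TN (-1.21 ± 0.283, FDR 0.00796), neither of them overlapping. Among the mRNAs MT-CO1 was higher in A549, at 8140, 8767 and 8819 CPM against 5874, 6286 and 6751 CPM (0.70 ± 0.0836, FDR 0.000257). MT-ATP6 was lower, at 1417, 1174 and 1001 CPM against 2351, 2888 and 2907 CPM (-0.91 ± 0.177, FDR 0.00327), while MT-ATP8 stood at -0.04 ± 0.217. The ratio of MT-ATP8 to MT-ATP6 was accordingly 0.685 to 0.816 in A549 and 0.393 to 0.425 in HCT116 (1.80-fold, exact permutation p = 0.1). With any 1 library left out, 3 to 10 members were called, 10 when S20 was left out and 7 when S21 was. Past the fold 16.8% of all genes were higher in A549 and 18.9% lower without S20, and 16.7% and 18.4% without S21.

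**Figure D5:**
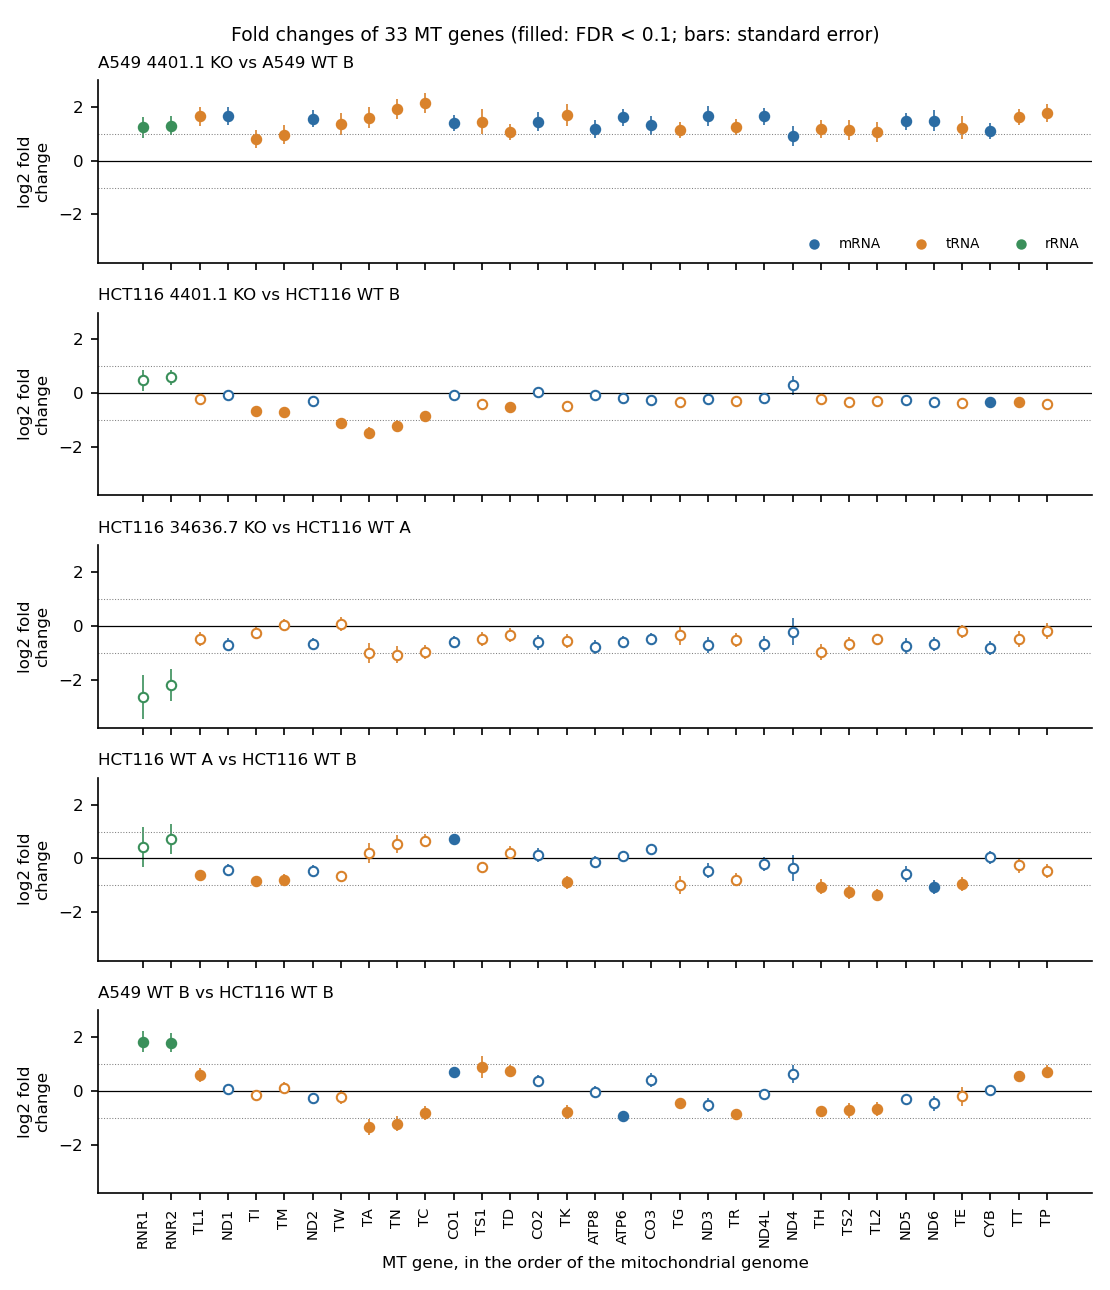
Log2 fold change (y axis, bars are standard errors) of 33 MT genes in the order of the mitochondrial genome (x axis) in 5 comparisons; filled points have an FDR below 0.1, dotted lines mark a log2 fold change of 1 in each direction, and colours mark mRNAs, tRNAs and rRNAs. All genes lie above 0 in A549 MSTRG.4401.1 KO, the tRNAs MT-TW to MT-TC fall below the others in HCT116 MSTRG.4401.1 KO, and MT-TH, MT-TS2, MT-TL2 and MT-ND6 lie below -1 in HCT116 WT A.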

How the data were processed

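RNA-seq counts of the 37 MT genes were examined in 24 libraries, 3 in each of 8 groups placed by their labels. Per the labels, rRNA was removed with Ribo-Zero and libraries were made with a strand-specific kit. The submitters' processing notes name Trim Galore 0.6.6, FastQC 0.11.9, HISAT2 2.2.1 and hg38. The study's methods name StringTie for quantification. The authors deposited whole-number counts per gene symbol, not normalized and not pooled. The annotation release, the step to whole counts and the use of strand in counting are not given in the sources used here. Symbols listed only in the libraries numbered 1A to 3A, 3 in all, were left out.

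From these counts each comparison was fitted on its own groups with edgeR 4.0.16 (R 4.3.3, limma 3.58.1), with TMM normalization, filterByExpr, glmQLFit and glmQLFTest, and Benjamini-Hochberg adjustment over all genes tested. Genes were called at FDR < 0.1 and |log2(fold change)| > 1, the thresholds of the study's methods, and also by the FDR alone. Interactions used the FDR alone. MT shares were compared by exact permutation tests (SciPy 1.17.1). CPM are relative to the library total. Coordinates and sequences came from GENCODE and hg38.

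All mRNAs, rRNAs and tRNAs of at least 1 CPM on average could be named, and of each nuclear list at most 5 called genes with the smallest FDR. POLRMT, TFAM, ELAC2 and PRORP were named after their values were seen. The lists covered mitochondrial transcription, RNA processing and decay, DNA maintenance, biogenesis regulators and mitochondrial ribosomal proteins. Members and lists were chosen with earlier results of these data known. Tests were run on simulated counts first. Alternatives were DESeq2 1.42.0, scaling on nuclear genes, upper-quartile normalization, no filter, FDR < 0.05, all libraries of a cell line, the other wild type, a replicate block, each library left out, and fits without S8 and S9. The value of S11 alone for the MT share was added after seeing the data. Reads carry no molecular identifiers, so floors cover counting error only.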

Additional observations from a re-analysis of the deposited data

Results flagged for a closer look

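The effect of the MSTRG.4401.1 KO differed between A549 and HCT116, by the edgeR interaction test, for 30 of the 35 members tested, and each of these differences was positive. The named examples, as the log2 fold change in A549 minus that in HCT116, were MT-TN at 3.09, MT-TA at 3.02, MT-TC at 2.95, MT-ND3 at 1.84 and MT-ATP8 at 1.19. For the tRNAs of this cluster the fold change was positive in A549 and negative in HCT116, while MT-ATP8 stood at 1.17 in A549 and -0.07 in HCT116. No group had more than 3 libraries, so single libraries could not be tested as outliers.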

How the results depend on the processing

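Counts of called members changed as follows. With each library left out in turn they ran from 20 to 34 in A549 MSTRG.4401.1 KO (32 with all), 0 to 7 in HCT116 MSTRG.2513.6 KO (0 with all), 2 to 3 in HCT116 MSTRG.4401.1 KO, 0 to 3 in MSTRG.34636.7 KO, 2 to 10 in WT A against WT B, 3 to 10 in A549 against HCT116 wild type, 26 to 32 in the MSTRG.4401.1 interaction and 0 to 10 in the MSTRG.2513.6 interaction. With all HCT116 libraries in 1 fit HCT116 MSTRG.4401.1 KO had 0 calls; with all but S8 and S9, HCT116 MSTRG.2513.6 KO had 9 and MSTRG.34636.7 KO 3. DESeq2 gave 3 for MSTRG.34636.7 KO and 3 for the MSTRG.2513.6 interaction. The other wild type gave 16 for MSTRG.34636.7 KO, and upper-quartile normalization 2 for WT A against WT B. The share of all genes called also differed between these fits, so the counts alone do not describe the members. The causes were not tested. The log2 difference of the MT share changed sign in HCT116 MSTRG.2513.6 KO, from -0.04 to 0.006 with nuclear copies, abundant noncoding RNAs and cytosolic rRNA left out of the total, with a range of -0.14 to 0.06 over the libraries left out (0.063 without S8, 0.010 without S14). It was -0.04 with S11 alone. In WT A against WT B it was -0.052 without 2A, and ran to 0.24. Single genes also reversed. In HCT116 MSTRG.2513.6 KO with all libraries but S8 and S9 these were MT-TL1 (-1.28), MT-ND1 (-0.89), MT-TM (-0.91), MT-TW (-1.35) and MT-TD (-1.10). With the other wild type they were MT-TI (0.16), MT-TM (0.087), MT-TS2 (0.92) and MT-TL2 (1.06) in HCT116 MSTRG.4401.1 KO, and MT-TM (-0.78) and MT-TW (-0.61) in MSTRG.34636.7 KO. In the MSTRG.2513.6 interaction without S8 and S9 they were MT-TD (1.49) and MT-TT (1.38). The replicate numbers in the library names did not pair samples (r of deviations -0.08 to 0.04), and a replicate block gave 0 calls for MSTRG.34636.7 KO, 5 for WT A against WT B and 4 for the wild-type lines. In A549 MSTRG.4401.1 KO 348 of 396 gene values over 33 named genes kept their side of the threshold and 0 reversed. MT-ND4, MT-TF, MT-TV, MT-TQ and MT-TY had few counts in all libraries, and small changes in them were not detectable.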

Other observations

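Nuclear copies of mitochondrial genes, 408 pseudogene symbols of the MT-derived families, were counted beside the MT genes, and their counts came to 3.23% to 5.44% of the MT counts of a library. The most abundant was MTCO1P12 on chromosome 1 (chr1:631074-632616), with a mean of 404.5 CPM, followed on the same chromosome by MTND2P28 with 281.2 CPM, MTATP8P1 with 173.0 CPM and MTATP6P1 with 95.2 CPM. In A549 MSTRG.4401.1 KO these copies held 0.132%, 0.341% and 0.254% of counts (S23, S24 and S25), against 0.129%, 0.0760% and 0.0643% in A549 WT B (S20, S21 and S22), and the order of the KO libraries was that of their MT shares. How reads that match both an MT gene and its nuclear copy were placed is not given in the sources used here.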
